A study of Mus musculus with 3 samples.

Results

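A set of 9 genes was followed in mouse islet cells with and without Taf4: Ldha, Hk1, Slc16a1, Acot7, Igfbp4, Cxcl12, Smad3, Oat and Aldh1a3. All but Aldh1a3 were chosen by name from the genes known as disallowed, which mature pancreatic beta cells keep silent while most other tissues express them. Aldh1a3 was added by name as a marker of failing beta cells. None of the 9 was picked by a threshold on a measured value. They are 9 of the 17226 genes listed in at least 1 of the 3 count tables, and each of the 3 tables lists all 9. The comparison asks whether loss of Taf4 lifts their repression.

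Genes that are disallowed in beta cells are expressed in most tissues and selectively silenced as beta cells mature. Their silence keeps pyruvate flowing into mitochondria rather than to lactate, and keeps circulating pyruvate and lactate from entering the cell and triggering insulin release. Repression is attributed to factors such as Rfx6 and to DNA methylation by Dnmt3a, and it is known to be lost in immature or dedifferentiated beta cells. Taf4 is a subunit of TFIID, the general transcription factor that binds core promoters and helps RNA polymerase II to start transcription.

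Islet cells were captured with the 10X Chromium 3′ assay, which counts unique molecular identifiers (UMIs), in 3 libraries, 1 per condition. For the WT library 300 islets were taken from 1 mouse, labelled male and wild type, on a C57/Bl6 background. Each mutant library was made from 300 islets pooled from 2 male mice of the same background that carried Ins1::Cre-ERT2 and floxed Taf4, taken 1 week or 5 weeks after tamoxifen, which was injected on 3 days at 11 to 13 weeks of age. The study's methods describe its controls as animals with the Cre and intact Taf4 that received tamoxifen too, while the label of the library gives no Cre and no time. All islets were cultured for a day and live cells sorted. The Cre is driven by the insulin gene Ins1, so that alpha and delta cells of a mutant islet are not its target. The study reports, however, that some beta cells without Taf4 turn into alpha-like cells that express Gcg. A mutant alpha class set by Gcg can therefore hold beta-derived cells, and their part was not tested. Since each condition has 1 library, conditions were not tested against each other, and genotype, animals and library cannot be told apart. Every interval given in parentheses is an exact 95% interval that covers counting error only.

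Cells were classed by the share of their UMIs that came from Ins2, Gcg or Sst, which left 8269 beta, 2815 alpha and 619 delta cells in WT, 561, 214 and 49 at 1 week, and 5557, 3248 and 1241 at 5 weeks. Of the delta markers other than Sst, 7 of 7 were detected in delta cells of every library. Of the alpha markers other than Gcg, 11 of 11 were detected in alpha cells. Detection alone does not part the classes, as the 11 alpha markers also had UMIs in WT and 5-week beta cells. Alpha markers summed to 39232 (WT), 8120 (1 week) and 16244 CPM (5 weeks) in alpha cells, against 1194, 354 and 732 CPM in beta cells. Delta markers summed to 8110, 7530 and 7834 CPM in delta cells, against 108, 86.3 and 204 CPM in beta cells. Beta markers other than Ins2 summed to 88453 (WT), 35339 (1 week) and 61603 CPM (5 weeks) in beta cells. In delta cells they summed to 56134, 45784 and 41128 CPM, so that they were higher there at 1 week. Ppy and Pyy, of pancreatic polypeptide cells, summed to 28946 CPM in WT alpha and 61692 CPM in WT delta cells, and these classes were not split further. Acinar markers summed to 4971 CPM in WT beta cells, 15.9 CPM at 1 week and 565 CPM at 5 weeks, and their part in the levels below was not tested. Beta cells held 16038673 UMIs in WT, 14973486 at 1 week and 27572717 at 5 weeks, with a median per cell of 1656, 24764 and 3899. Beta cells of the 1-week library also had to hold at least 5000 UMIs, a minimum not set in the other libraries. That library therefore rests on few, deeply counted beta cells, and 1470 of its 2295 barcodes fell in no class. With no minimum its beta class held 1711 cells, so that many of the 1470 were shallower cells with enough Ins2. The WT library goes against its label: Xist, the RNA of the inactive X chromosome, was at 891 CPM there against 0.735 and 0.279 CPM in the mutants, and the Y-linked Ddx3y was at 0. Libraries shared 2, 5 and 33 barcodes in pairs. Over all cells Taf4 was counted at 5.24 CPM in WT, 8.47 at 1 week and 4.06 at 5 weeks. These levels pool beta cells with cells that the Cre does not target. A tag at the 3′ end also does not check a deletion elsewhere in the gene. From 7 hormone genes came 68.0% (WT), 42.8% (1 week) and 66.5% (5 weeks) of beta-cell UMIs, and the median gene of beta cells stood 1.10 higher on the log2 scale at 1 week than in WT, and 0.16 higher at 5 weeks.

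Levels are in CPM, a gene's UMIs per 1000000 UMIs summed over a class of a library, and the assay does not scale them by gene length. Levels at 1 week, here and below, are not corrected for the higher median gene of that library. In cells within the beta limits the 9 genes stayed close to absent in every library. The limits set a minimum Ins2 share and keep Gcg under 3%. Mixed-identity cells, which the study describes at 1 week, can fall outside these limits and are then not covered. Summed over the 9, beta cells held 41 UMIs in WT, 2.56 CPM (1.83 to 3.47), 16 UMIs at 1 week, 1.07 CPM (0.611 to 1.74), and 64 UMIs at 5 weeks, 2.32 CPM (1.79 to 2.96). Each of the 9 was below 1 CPM in beta cells of every library. The 1-week interval ended below that of WT, but this rests on which cells are counted. With no UMI minimum for its beta cells the 1-week sum was 1.83 CPM (1.24 to 2.62), an interval that overlaps that of WT. The order turned when every cell was thinned to 1000 UMIs (2.45 CPM in WT and 3.57 CPM, from 2 UMIs, at 1 week) and within the study's limits on genes and mitochondrial UMIs, where 2 UMIs in 17 beta cells gave 13 CPM (1.57 to 46.8) at 1 week. The 5-week interval overlapped that of WT. At 5 weeks 0 members were 2-fold higher and 0 were 2-fold lower than in WT beta cells, beside 8.94% and 6.28% of the 11851 genes with at least 20 UMIs over both. The count of higher members became 1, Ldha, with the mean of each cell's CPM (log2 1.81), within the study's limits (1.39), with cells of several classes kept (1.20) and at a 1.5-fold limit. Of the 9, Oat and Aldh1a3 alone reached 20 UMIs in that comparison, and 5 had 3 UMIs or fewer on both sides (Hk1, Slc16a1, Igfbp4, Cxcl12 and Smad3), for which no ratio is given. Acot7, with 0 UMIs in WT and 4 at 5 weeks, gave a bound that leaves its direction open. The counts of 0 members therefore rest on Ldha, Oat and Aldh1a3.

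**Figure D1:**
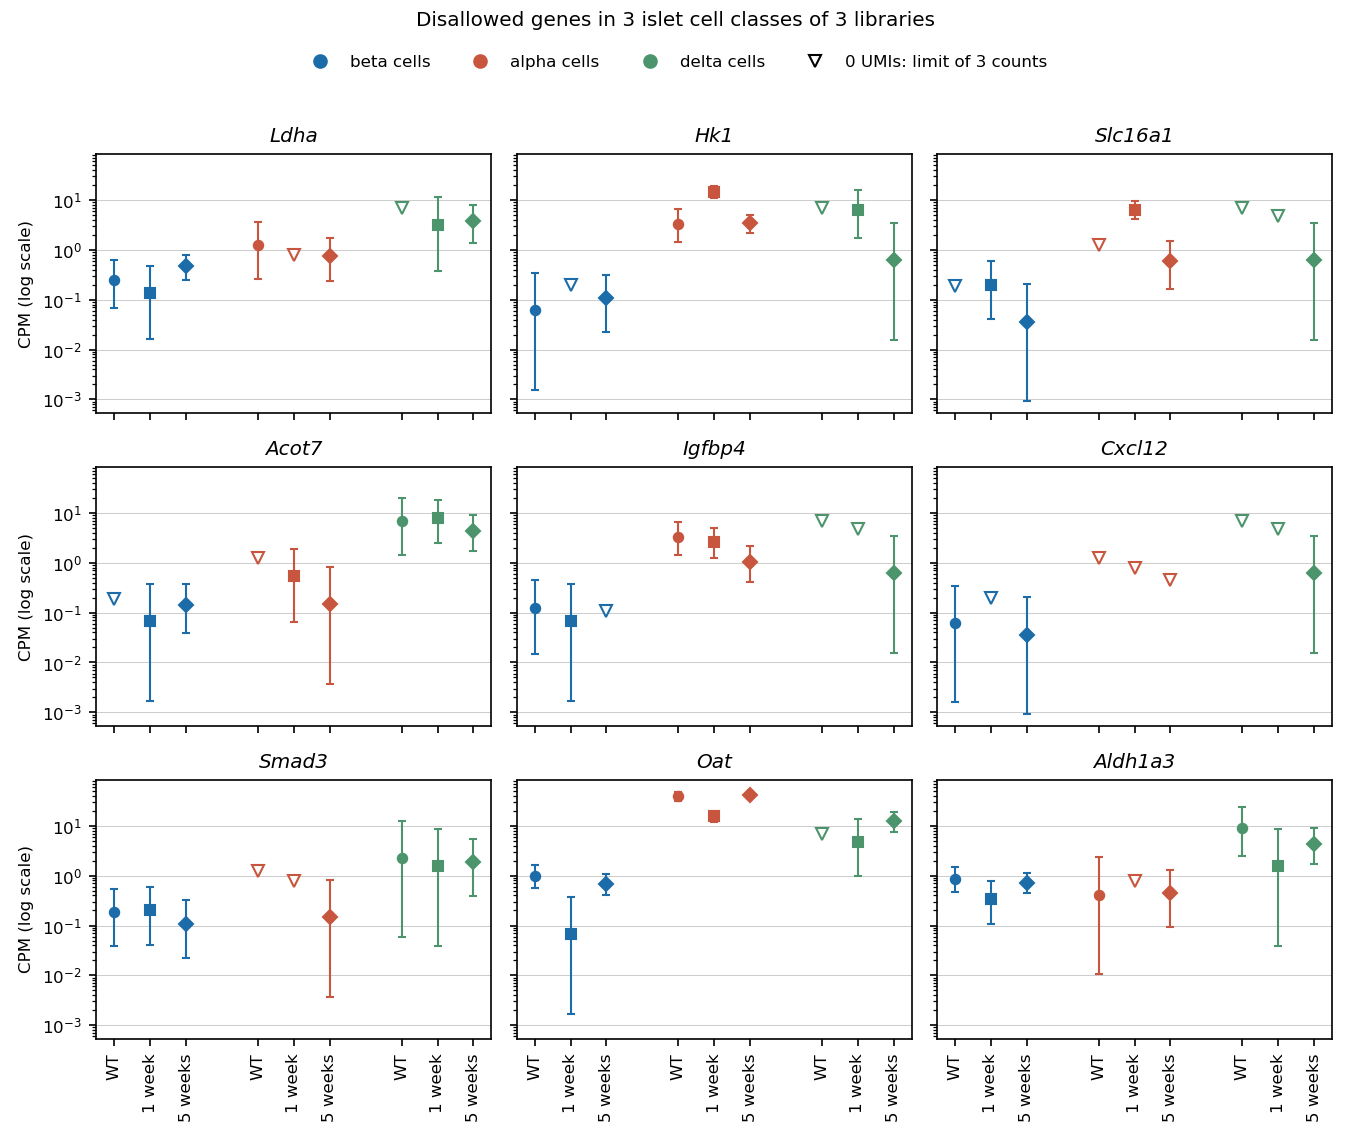
Level of each of the 9 genes in CPM on a log axis, by library, for beta (blue), alpha (red) and delta cells (green). Points are levels, bars are exact 95% Poisson intervals for 1 library each, and open triangles mark the limit of 3 counts where 0 UMIs were counted. Every beta-cell level lies below 1 CPM, and Oat in alpha cells lies between 15.7 and 41.9 CPM.

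The summed level of the 9 was higher in the alpha and delta classes. The median gene was lower in beta cells too, at 0.664 (WT), 0.952 (1 week) and 0.709 (5 weeks) of its alpha level. Of its delta level it was at 0.485, 0.706 and 0.462. Levels and folds between classes, here and below, are not corrected for this. Alpha cells held 47.4 CPM (39.1 to 56.9) in WT, 39.6 CPM (33.5 to 46.5) at 1 week and 48.4 CPM (43.3 to 54.0) at 5 weeks. In delta cells the sum was 18.2 CPM (7.88 to 36.0), 24.9 CPM (14.3 to 40.5) and 29.1 CPM (21.4 to 38.7). The beta interval lay below the alpha and the delta interval in each of the 3 libraries. Oat gave 94 of the 114 WT, 59 of the 149 1-week and 284 of the 328 5-week alpha UMIs. Without Oat, a sum added after the data were seen, alpha cells held 8.31 CPM (5.08 to 12.8) in WT, 23.9 CPM (19.2 to 29.4) at 1 week and 6.50 CPM (4.72 to 8.72) at 5 weeks, so that the 1-week level was then above both others. Beta cells without Oat held 1.56 CPM (1.01 to 2.30), 1.00 CPM (0.561 to 1.65) and 1.63 CPM (1.19 to 2.18), and delta cells 18.2, 20.3 and 16.7 CPM. These beta intervals also lay below the alpha and delta intervals of their library. Counted gene by gene, 0 members in WT, 1 at 1 week (Hk1) and 1 at 5 weeks (Oat) were at least 2-fold lower in beta than in both alpha and delta cells, beside 17.9%, 6.36% and 20.6% of the genes with enough UMIs. Low counts in the small delta class left most members without a ratio there.

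**Figure D2:**
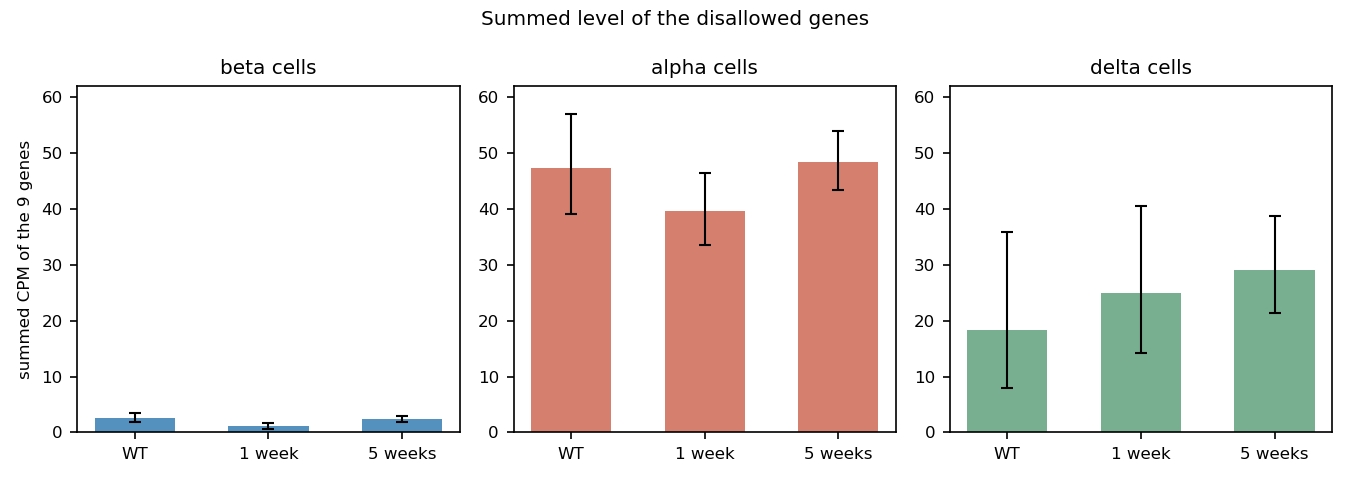
Summed CPM of the 9 genes (vertical axis, linear from 0) by library in beta, alpha and delta cells, with exact 95% Poisson intervals as bars. Beta cells lie between 1.07 and 2.56 CPM, alpha cells between 39.6 and 48.4 CPM.

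The glucose and lactate genes come first. Ldha encodes the lactate dehydrogenase subunit that favours conversion of pyruvate to lactate, and lies at chr7:46842274-46855627 in GRCm38.p6, the build of the files (mm10). Slc16a1 encodes MCT1, the plasma membrane carrier of pyruvate and lactate, at chr3:104638664-104658462. Since Taf4 acts at core promoters, the RefSeq promoter windows of GRCm38.p6 (250 bases before to 50 after a transcript's start, on the gene's strand) are shown for both, with ACGTG or its reverse complement CACGT, the core letters of hypoxia-response elements and, within CACGTG, of E-boxes, in capitals. The Ldha window shown is chr7:46845554-46845853 and the Slc16a1 window chr3:104638414-104638713, both on the plus strand. Ldha has another window, chr7:46846832-46847131, which holds no ACGTG on either strand and is not shown.
Ldha: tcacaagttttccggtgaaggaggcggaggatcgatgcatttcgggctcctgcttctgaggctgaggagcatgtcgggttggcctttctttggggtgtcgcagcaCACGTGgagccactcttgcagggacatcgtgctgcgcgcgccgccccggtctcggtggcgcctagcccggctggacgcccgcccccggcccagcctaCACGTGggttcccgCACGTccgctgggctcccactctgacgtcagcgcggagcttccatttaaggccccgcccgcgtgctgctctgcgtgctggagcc
Slc16a1: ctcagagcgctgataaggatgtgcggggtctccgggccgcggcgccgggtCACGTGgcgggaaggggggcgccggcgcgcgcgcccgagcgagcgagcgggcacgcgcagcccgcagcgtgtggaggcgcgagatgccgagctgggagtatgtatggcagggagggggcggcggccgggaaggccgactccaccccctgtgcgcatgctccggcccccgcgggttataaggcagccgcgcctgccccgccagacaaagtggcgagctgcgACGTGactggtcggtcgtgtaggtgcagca
A window was found for 8 of the 9 genes, 10 windows in all, of which 4 hold ACGTG on either strand, against 19.6% of 32851 mouse windows of this length. In the Ldha window shown, both CACGTG palindromes are counted on both strands. The letters describe the sequence and not a bound site.

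Ldha was counted 4 times in WT beta cells, 2 times at 1 week and 13 times at 5 weeks, which is 0.249 CPM (0.068 to 0.639), 0.134 CPM (0.016 to 0.482) and 0.471 CPM (0.25 to 0.806). The 3 intervals overlap, and the 1-week log2 ratio to WT, -0.90, became 0.78 with no UMI minimum. At 5 weeks the level was 0.92 above WT on the log2 scale with an interval from -0.78 to 2.99, and the 13 UMIs lay in 11 of 5557 cells. Carry-over of free RNA from alpha and delta cells, scaled by the Gcg and Sst found in beta cells, would account for 0.060 CPM of the 5-week level. This takes all of that Gcg and Sst as free RNA, which was not tested. With every cell thinned to 1000 UMIs, Ldha was seen in 2 of 7767 WT beta cells (0.0258%, 0.0031 to 0.093), 3 of 5352 at 5 weeks (0.0561%, 0.0116 to 0.164) and 0 of 561 at 1 week, which allows up to 0.535%; unthinned, the shares were 0.0484% in WT, 0.198% at 5 weeks and 0.357% at 1 week. Reads of Ldha can be shared with its processed copies, 3 of which RefSeq names and none of which has a row in the tables, so its counts are uncertain by that much.

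Slc16a1 had 0 UMIs in the whole WT library, which allows up to 0.187 CPM in beta cells. Mutant beta cells held 3 UMIs at 1 week and 1 at 5 weeks, or 0.20 and 0.0363 CPM. In alpha cells 0 UMIs were counted in the WT library, 24 at 1 week and 4 after 5 weeks. The 1-week alpha level was 6.38 CPM (4.1 to 9.49), at least 5.12-fold higher than WT alpha cells taken at the limit of 3 counts, and 31.8-fold higher (9.67 to 165) than beta cells of its own library. At 5 weeks the alpha level was 0.591 CPM (0.16 to 1.51), an interval that ends below the 1-week one.

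Hk1 encodes a hexokinase with high affinity for glucose, at chr10:62268855-62379920. Its UMIs in beta cells were 1 (WT), 0 (1 week) and 3 (5 weeks), and 0.109 CPM (0.022 to 0.318) was the highest level. Alpha cells held 8, 54 and 23, or 3.32 CPM (1.4 to 6.55), 14.3 CPM (11 to 18.7) and 3.40 CPM (2.2 to 5.1). Hk1 in alpha cells at 1 week thus stood apart from both other libraries, 2.11 above WT on the log2 scale (1.03 to 3.39) and 1.47 after the shift of the median alpha gene, 0.63, was taken off. Hk1 and Slc16a1 were the 2 members at least 2-fold higher in alpha cells at 1 week and Oat the 1 that was lower, beside 33.2% and 6.07% of 9944 genes. At 5 weeks 0 members were 2-fold higher in alpha cells (7.06% of genes) or delta cells (12.1%), and lower were Igfbp4 in alpha cells (2.22%) and Aldh1a3 in delta cells (2.47%), each from under 20 UMIs. Slc16a1 in alpha cells, and Ldha and Oat in delta cells, had 0 UMIs in WT, so a 2-fold rise of these cannot be told. Within libraries Hk1 was 53.3-fold higher in alpha than in beta cells in WT (7.15 to 2366), at least 71.6-fold at 1 week and 31.2-fold at 5 weeks (9.43 to 162). Hk2, another hexokinase, had 0 UMIs in beta cells of each library.

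The enzymes around these genes were counted well and can be set beside them. Of 15 glycolytic genes, 14 had at least 20 UMIs at 5 weeks and WT together, 0 were 2-fold higher and 1 was 2-fold lower, with a median log2 ratio of 0.14 against 0.16 for all genes. Aldoc, an aldolase, was the one below, with 2.81 CPM in WT beta cells and 0.762 CPM at 5 weeks (log2 -1.88, -2.70 to -1.10), followed by Eno2 at 6.17 and 4.13 CPM (-0.58, -0.98 to -0.17). Tpi1 had the highest ratio, 33.9 CPM in WT and 56.1 CPM at 5 weeks (0.73, 0.59 to 0.87), then Pgam1, 68.3 and 102 CPM (0.58, 0.48 to 0.68). Of 13 counted genes of lactate and pyruvate handling, 1 was 2-fold higher and 1 lower. The higher one was Slc16a7, the pyruvate and lactate carrier MCT2, with 1 UMI in WT, 1 at 1 week and 21 at 5 weeks, or 0.0623, 0.0668 and 0.762 CPM (log2 3.61 at 5 weeks, 0.97 to 8.98). Slc16a7 was at 27.4 CPM in WT delta cells and 20.4 CPM in 5-week delta cells. Sst in beta cells stood at 0.164% of its delta-cell level in WT and at 1.54% at 5 weeks. The part of delta-cell RNA in the beta-cell counts of Slc16a7 was not tested. Next came Ldhd, a lactate dehydrogenase for the D form (0.96, 0.37 to 1.59). Pdk4, a kinase that shuts off pyruvate dehydrogenase, was the lower one, 0.748 and 0.290 CPM (-1.37, -2.86 to 0.04), followed by Pdk2 (-0.60). Ldhb, the lactate dehydrogenase subunit that favours pyruvate, was at 7.23, 14.1 and 8.31 CPM and Slc16a3, MCT4, had at most 2 UMIs in beta cells. Of 9 genes of the NADH shuttles, Got1 was 2-fold higher (7.05 to 15.8 CPM, log2 1.17, 0.86 to 1.48) and Slc25a13 2-fold lower (1.43 to 0.653 CPM, -1.14, -2.11 to -0.18). Slc25a11 (0.79) and Gpd1 (-0.73) were next in each direction.

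Oat, ornithine aminotransferase, which links ornithine and proline metabolism, had the most UMIs of the 9 in the 3 classes, 496 in all. It lies on the minus strand at chr7:132557475-132576398. Its promoter window, chr7:132576349-132576648, holds 1 CACGT behind the start, in capitals, and no TATAAA, a core promoter box found in 13.6% of all windows on either strand.
Oat: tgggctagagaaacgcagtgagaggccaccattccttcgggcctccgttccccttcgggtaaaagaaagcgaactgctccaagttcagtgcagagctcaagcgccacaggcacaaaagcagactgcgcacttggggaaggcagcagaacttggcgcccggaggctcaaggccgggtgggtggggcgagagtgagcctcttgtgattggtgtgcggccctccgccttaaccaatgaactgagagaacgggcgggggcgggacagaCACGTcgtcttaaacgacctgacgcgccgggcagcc

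Beta cells held 16 Oat UMIs in WT, 1 at 1 week and 19 at 5 weeks, or 0.998 CPM (0.57 to 1.62), 0.0668 CPM (0.0017 to 0.372) and 0.689 CPM (0.41 to 1.08). The 1-week interval lies below both others, but with no UMI minimum for 1-week beta cells 5 UMIs gave 0.305 CPM (0.0992 to 0.713), which overlaps both, and a log2 ratio to WT of -1.71. With the minimum the log2 ratio to WT was -3.90 at 1 week (-9.29 to -1.21) and -0.53 at 5 weeks (-1.57 to 0.52). At 1 week Oat and Aldh1a3, with 17 and 19 UMIs over both libraries and so short of the minimum of 20, were the 2 members at least 2-fold lower than in WT beta cells, beside 3.89% of 11637 genes with that minimum, and 0 members were 2-fold higher, beside 55.0%. Relative to the median gene these shares were 13.9% and 10.1%, with 3 members lower, Oat (-5.00), Aldh1a3 (-2.49) and, from 6 UMIs, Ldha (-2.0), and 0 higher. Only Ldha, Oat and Aldh1a3 had a ratio there, as every other member had 3 UMIs or fewer on both sides. Against 1 week instead of WT, 4 members (Ldha, Acot7, Oat and Aldh1a3) were 2-fold higher in 5-week beta cells. Ldha and Acot7, with 15 and 5 UMIs over both, are short of the minimum of 20. Oat and Aldh1a3, the only 2 members that reach it, stand beside the 3.54% of genes with it. Their folds were 10.3 (1.64 to 429), from 1 Oat UMI at 1 week, and 2.17 (0.791 to 7.41). After thinning, Aldh1a3 had 1 of 561000 UMIs at 1 week and 4 of 5352000 at 5 weeks, so its order turned. Alpha cells held 94, 59 and 284 Oat UMIs, 39.1 CPM (32 to 47.8), 15.7 CPM (12 to 20.2) and 41.9 CPM (37 to 47.1), so that the 1-week level was lower there as well, by a log2 ratio of -1.32 (-1.81 to -0.83), and the 5-week level was close to WT at 0.10 (-0.24 to 0.45). Alpha cells exceeded beta cells 39.2-fold in WT (22.9 to 71.3), 235-fold at 1 week (40.5 to 9427) and 60.9-fold at 5 weeks (38.3 to 103). The 1-week fold rests on 1 beta-cell UMI and was 51.3 (20.8 to 164) with no UMI minimum. Delta cells had 0, 3 and 20 UMIs, and the 5-week level of 12.4 CPM (7.6 to 19.1) was at least 1.81-fold higher than WT taken at the limit of 3 counts.

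Free RNA from alpha and delta cells would give 0.213 of the 0.998 CPM of Oat in WT beta cells and 0.341 of the 0.689 CPM at 5 weeks, the largest such part in CPM among the 9. The estimate takes all Gcg and Sst in beta cells as free RNA, which was not tested, and the study reports mutant cells of mixed identity. Cells with several hormones were removed from WT alone, so the estimates for WT and 5 weeks are not alike. The 19 beta cells with an Oat UMI at 5 weeks had Gcg at 2473 CPM and Sst at 7087 CPM, against 1333 and 1970 CPM in those without, whereas in WT Gcg was at 1874 and 1844 CPM and Sst at 675 and 250 CPM. With that part taken off, or in beta cells under 1% Gcg and Sst, Oat was more than 2-fold lower at 5 weeks than in WT. Of 8 counted genes of ornithine, proline and arginine metabolism, 3 were 2-fold higher in 5-week than in WT beta cells and 0 lower. Arg1, arginase, had the highest ratio, 1.43 to 7.22 CPM (log2 2.33, 1.71 to 3.02), and Odc1, which makes polyamines from ornithine, went from 16.1 to 37.3 CPM (1.21, 1.01 to 1.42). Arg1 was at 162 CPM in WT delta and 248 CPM in 5-week delta cells. With Sst in beta cells at 0.164% (WT) and 1.54% (5 weeks) of its delta level, the delta-cell part of Arg1 was not tested. Asl, of the urea cycle, had the lowest ratio, -0.15.

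Aldh1a3 encodes a retinaldehyde dehydrogenase, at chr7:66390892-66427477, and is known for rising in beta cells of diabetic mice. It was counted 14, 5 and 20 times in beta cells of WT, 1 week and 5 weeks, which is 0.873 CPM (0.48 to 1.46), 0.334 CPM (0.11 to 0.779) and 0.725 CPM (0.44 to 1.12). The intervals overlap, and the log2 ratio to WT was -1.39 at 1 week (-3.21 to 0.17) and -0.27 at 5 weeks (-1.32 to 0.83). After thinning every cell to 1000 UMIs the 1-week ratio changed sign, to 0.98. Delta cells had the higher levels, 9.12 CPM (2.5 to 23.4) in WT, 1.56 CPM from 1 UMI at 1 week and 4.34 CPM (1.7 to 8.94) at 5 weeks, which in WT and at 5 weeks was 10.5-fold (2.51 to 33.3) and 5.98-fold (2.14 to 14.7) above beta cells. Alpha cells held 1, 0 and 3 UMIs, and the folds of beta over alpha cells were 2.10 (0.32 to 88.8) in WT and 1.64 (0.486 to 8.61) at 5 weeks, intervals that hold 1; the WT log2 ratio, beta over alpha, turned to -0.80 after thinning. At 5 weeks the 19 beta cells with an Aldh1a3 UMI had Ins1 at 47112 CPM against 22460 CPM in the other 5538 cells, and in WT 13 cells had 135810 against 153575 CPM. These cells come from 1 library each, with median UMIs of 6507 and 3896.5 at 5 weeks, so the values are a description. Other retinaldehyde dehydrogenases were nearly absent: Aldh1a1 had 1, 1 and 2 UMIs and Aldh1a2 0, 0 and 1. Of 5 counted genes of retinoid metabolism 0 passed 2-fold at 5 weeks in either direction, and Rdh11 (-0.47), Rdh10 (-0.34) and Rarg (0.29) were among them.

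Neurog3, the transcription factor of endocrine progenitors, had 4 UMIs in WT beta cells and 44 at 5 weeks, 0.249 and 1.60 CPM (log2 2.68, 1.22 to 4.62). It was at 34.2 CPM in WT delta and 45.9 CPM in 5-week delta cells. Sst in beta cells was at 0.164% (WT) and 1.54% (5 weeks) of its delta level. The delta-cell part of the Neurog3 counts in beta cells was not tested. Cd81, a marker of immature beta cells, was at 20.3 and 45.1 CPM (1.15, 0.97 to 1.33), Serpina7 at 3.18 and 0.834 CPM (-1.93, -2.71 to -1.19) and Gast at 0.623 and 0.363 CPM (-0.78, -2.20 to 0.64). Of the 7 counted genes of the list of dedifferentiation and progenitor genes, 2 were 2-fold higher and 1 lower.

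Igfbp4 encodes a binding protein of insulin-like growth factors, at chr11:99040005-99052655. Its window at chr11:99040994-99041293, on the plus strand, is the single member window that holds TATAAA, in capitals, beginning 28 bases before the start.
Igfbp4: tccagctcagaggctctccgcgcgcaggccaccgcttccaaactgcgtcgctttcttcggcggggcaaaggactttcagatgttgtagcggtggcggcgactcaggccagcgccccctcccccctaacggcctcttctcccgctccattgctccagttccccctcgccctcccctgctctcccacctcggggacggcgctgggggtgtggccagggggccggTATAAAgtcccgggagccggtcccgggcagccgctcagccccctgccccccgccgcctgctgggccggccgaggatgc

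Beta cells held 2 Igfbp4 UMIs in the WT library, 1 at 1 week and 0 after 5 weeks, where 0 allows up to 0.109 CPM. Alpha cells held 8, 10 and 7, or 3.32 CPM (1.4 to 6.55), 2.66 CPM (1.3 to 4.89) and 1.03 CPM (0.42 to 2.13). The 5-week alpha level was below WT by a log2 ratio of -1.69 with an interval that ends just under 0 (-3.38 to -0.03). Of the 5 counted relatives, Igfbp3 was higher in 5-week beta cells (0.561 to 1.99 CPM, log2 1.83, 0.80 to 3.03), Igfbp5 (3.12 to 0.907 CPM, -1.78, -2.54 to -1.06) and Igfbp7 (70.5 to 33.4 CPM, -1.08, -1.20 to -0.95) were lower, and the receptor Igf2r was at 0.26 (-0.01 to 0.53).

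Acot7, an acyl-CoA thioesterase at chr4:152178100-152271855, had 0, 1 and 4 UMIs in beta cells and 3, 5 and 7 in the far smaller delta class, or 6.84 CPM (1.4 to 20), 7.79 CPM (2.5 to 18.2) and 4.34 CPM (1.7 to 8.94). Delta exceeded beta cells 29.9-fold at 5 weeks (7.6 to 139). The other thioesterases were counted in beta cells and 0 of 5 passed 2-fold at 5 weeks, from Acot2 at 2.00 and 1.31 CPM (log2 -0.61, -1.34 to 0.12) to Acot11 at 2.99 and 4.17 CPM (0.48, -0.02 to 1.00), with Acot9 (0.04) and Acot8 (0.26) between.

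The signalling genes were the sparsest. Cxcl12, a chemokine, at chr6:117168535-117181368, had 1, 0 and 1 UMIs in beta cells, 0 in alpha cells of each library and 0, 0 and 1 in delta cells. Its receptor Cxcr4 had 3, 0 and 1 UMIs in beta cells. Smad3, which carries TGF-beta and activin signals to the nucleus, at chr9:63646766-63757994, had 3 UMIs in beta cells of each of the 3 libraries, 0.187, 0.20 and 0.109 CPM. Smad2, its close relative, was counted at 6.11, 19.9 and 7.18 CPM. Of 12 counted genes of the pathway, the activin receptor Acvr2b alone was 2-fold higher at 5 weeks (1.56 to 3.34 CPM, 1.10, 0.45 to 1.80) and 0 were lower, with Inhba (-0.67) and Tgfbr1 (-0.60) lowest. The inhibitor Smad7 went from 2.68 CPM in WT to 46.3 CPM at 1 week and 4.79 CPM at 5 weeks.

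Several of the 9 genes were readily counted in other cells of the mutant libraries. Outside the hormone classes, 171 cells of the 5-week library carried endothelial markers (at least 3 of 8 and 5 UMIs, a rule set after values had been seen) and held 236076 UMIs. They held 91 Ldha UMIs, 385 CPM (310 to 473), 818-fold above beta cells of that library (455 to 1594). Igfbp4 had 23 UMIs, 97.4 CPM (61.8 to 146) and at least 895-fold more than beta cells, Hk1 15 UMIs, 63.5 CPM (35.6 to 105), Oat 13 UMIs, 55.1 CPM (29.3 to 94.2), and Cxcl12 8 UMIs, 33.9 CPM (14.6 to 66.8). Slc16a1, Acot7, Smad3 and Aldh1a3 had 3, 2, 1 and 1. In the 1-week library 21 cells with markers of a non-endocrine type held 164 of the 171 Ldha UMIs and 53 of the 53 Cxcl12 UMIs. No cell of WT met the rule for endothelial markers and 66 met it for acinar ones, with 1 Ldha UMI among them. In beta cells the endothelial markers, 8 of 8 listed in WT, 6 at 1 week and 7 at 5 weeks, summed to 4.36 CPM in WT, 5.41 at 1 week and 15.1 CPM at 5 weeks, with Cldn5 at 0 or not listed in each; their part in the 5-week Ldha counts was not tested.

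**Figure D3:**
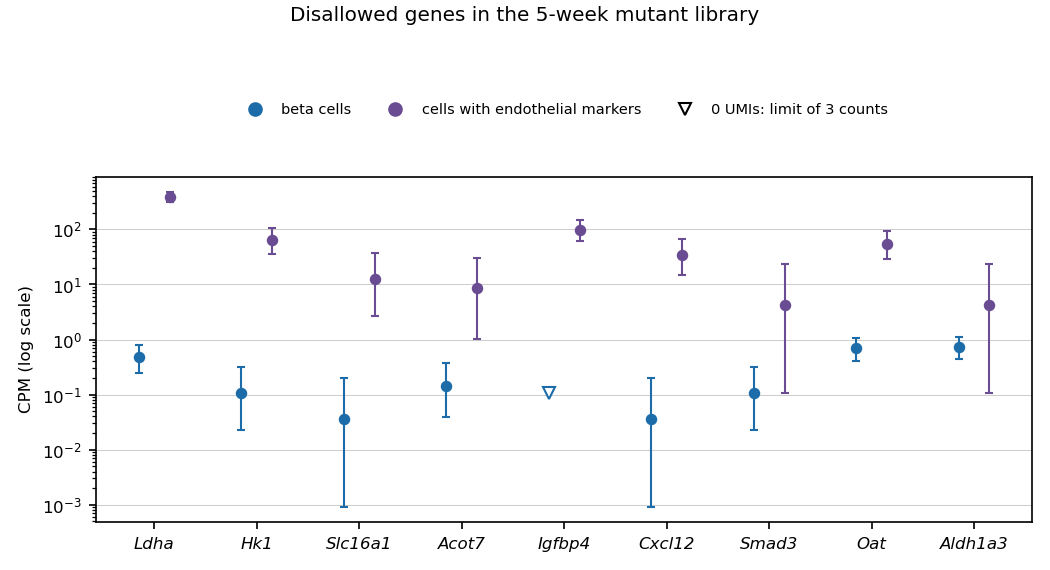
Level of the 9 genes in the 5-week library in CPM on a log axis, in 5557 beta cells (blue) and in 171 cells with endothelial markers (purple), with exact 95% Poisson intervals; the open triangle marks the limit of 3 counts where 0 UMIs were counted. Ldha lies at 0.471 CPM in beta and at 385 CPM in endothelial-marker cells.

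Of 26 further genes known as disallowed in beta cells, 9 had at least 20 UMIs in WT and 5-week beta cells together, 2 of them were 2-fold higher at 5 weeks, 1 was lower and the median log2 ratio was -0.20. Relative to the median gene 1 was higher and 3 were lower, beside 6.36% and 8.12% of all genes. Nfib, a transcription factor, had 4 and 19 UMIs (log2 1.47, -0.12 to 3.48) and Zyx, an adhesion protein, 1.06 and 2.14 CPM (1.01, 0.22 to 1.89). Cd44, a hyaluronan receptor, was the lower one, 6.30 and 1.78 CPM (-1.83, -2.35 to -1.32), and Zfp36l1 stood at 0.935 and 0.471 CPM (-0.99, -2.18 to 0.18). At 1 week 4 of 6 counted genes were 2-fold higher, and 1 relative to the median gene: Cat, catalase, which went from 0.748 to 7.68 CPM and was at 0.653 CPM at 5 weeks.

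Both named repressors, Rfx6 and Dnmt3a, were counted in each library. Rfx6 was at 16.5, 35.8 and 19.0 CPM in beta cells and Dnmt3a at 18.6, 71.9 and 17.4 CPM. These levels are not corrected for the median gene of beta cells, which was 2.14-fold higher at 1 week than in WT. Of 13 counted genes of the list, Ezh2, the histone H3 lysine 27 methyltransferase, was the 1 at least 2-fold higher at 5 weeks, 1.18 to 3.63 CPM (log2 1.61, 0.90 to 2.41), followed by Hdac3, 8.17 to 12.7 CPM (0.63, 0.34 to 0.93). Insm1 (102 to 58.3 CPM, -0.81, -0.91 to -0.71) and Dnmt3b (2.00 to 1.16 CPM, -0.78, -1.54 to -0.03) had the lowest ratios. Of 10 counted genes of the hypoxia response 2 were 2-fold higher, the glucose transporter Slc2a1 (0.811 to 2.43 CPM, 1.58, 0.71 to 2.57) and Epas1 (0.374 to 0.907 CPM, 1.28, -0.04 to 2.85), and Hif1a stood at -0.59 (-0.79 to -0.39) with Ankrd37 at -0.21 (-0.46 to 0.04).

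Genes that mark the mature beta cell were counted in the same cells, and their list was not tested against the 9. Of 10 such genes 6 were at least 2-fold lower at 5 weeks and 1 higher, with a median log2 ratio of -1.95. Trpm5, a cation channel, went from 148 CPM (WT) to 6.95 CPM (1 week) and 1.41 CPM (5 weeks), and Slc2a2, the glucose transporter GLUT2, from 198 to 26.9 and 2.28 CPM. Pdx1 (36.0, 117 and 83.2 CPM) and Mafa (129, 407 and 209 CPM), transcription factors of the beta cell, had the highest ratios, 1.21 (1.07 to 1.34) and 0.70 (0.63 to 0.77) at 5 weeks. Slc2a2 stood at -6.44 on the log2 scale at 5 weeks (-6.82 to -6.08).

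**Figure D4:**
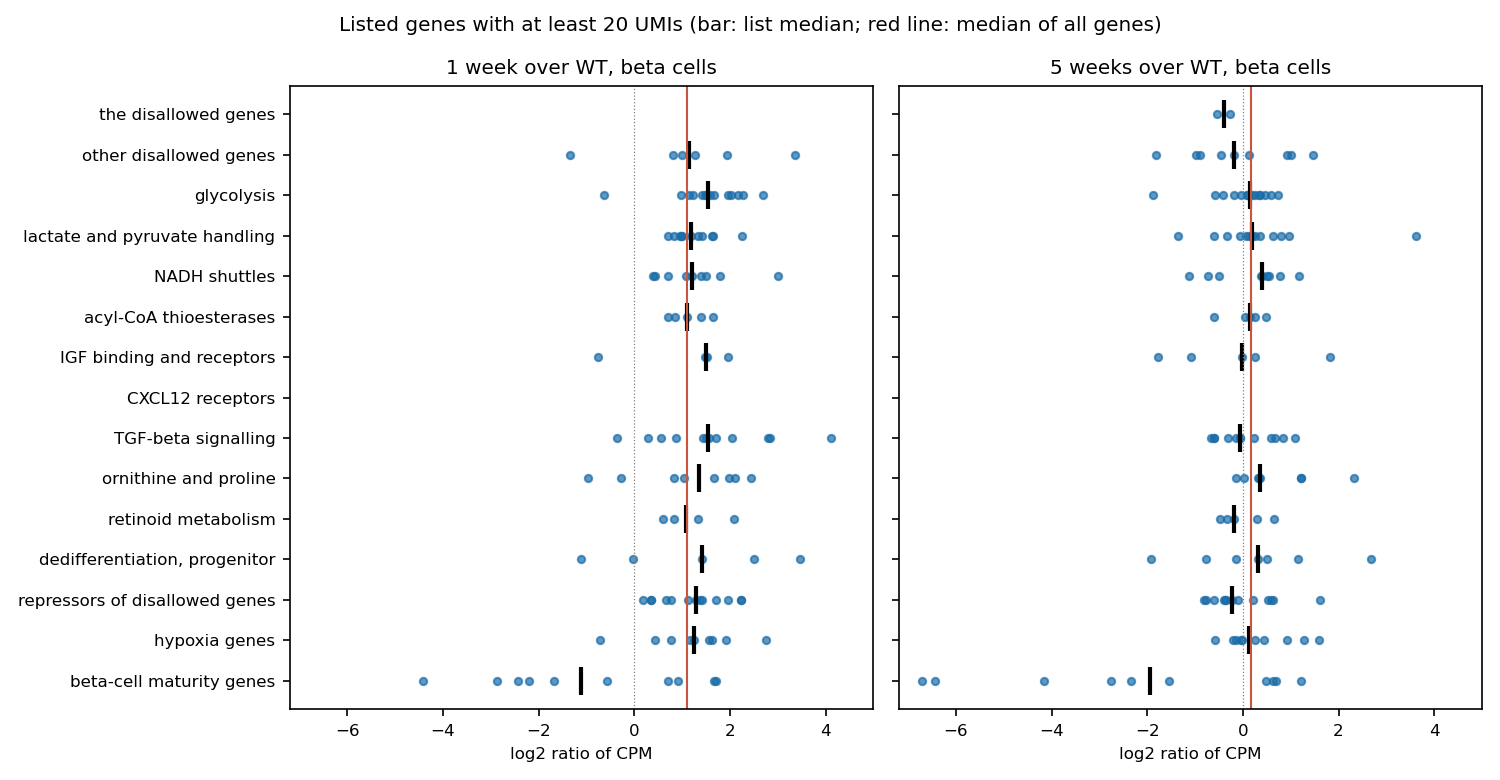
Log2 ratio of CPM in mutant over WT beta cells at 1 week (left) and 5 weeks (right) for genes of each list with at least 20 UMIs over both libraries; each point is a gene, black bars are list medians, the red line is the median of all genes (1.10 and 0.16) and the dotted line is 0. Beta-cell maturity genes reach -6.71 at 5 weeks. Of the 9 genes followed, Oat and Aldh1a3 have enough UMIs and lie at -0.53 and -0.27, and the other 7, like all 9 at 1 week, have too few to be drawn.

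Profiles most like those of the members were ranked by Pearson's r of log2 (CPM + 10) over the 9 sums of class and library, which share libraries, and are given for the 3 members with over 50 UMIs in those sums. Oat was most like Cacng4 (0.974) and C8b (0.969), Hk1 most like Gas6 (0.964) and Fgfr1 (0.963), and Aldh1a3 most like Vamp5 (0.968) and Srrm4 (0.951). The first 4 of these genes, like Oat and Hk1, were highest in alpha cells, and Vamp5 and Srrm4 in delta cells of WT.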

How the data were processed

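The 3 tables, 1 per library, were used; as deposited by the authors they hold unnormalized UMI counts for each gene in each barcode, made with Cell Ranger 3.1 against mm10. In the WT library alone the authors removed doublets and cells with several hormones, and scaled it to 12000 cells; no doublet caller was run here. The study's limits (200 to 1500 detected genes, under 15% mitochondrial UMIs) were applied only as an alternative. They keep all 8269 beta, 2815 alpha and 619 delta cells of WT, so that table already meets them, but 17 of 561 beta cells at 1 week and 4702 of 5557 at 5 weeks: a filtered WT table is thus compared with mutant tables that hold cells outside the limits.

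Beta cells had at least 20% Ins2 (5% and 5000 UMIs at 1 week) and under 3% Gcg, alpha cells at least 15% Gcg (8%), delta cells at least 5% Sst (1.5%); 2, 1 and 202 cells that met several limits were left out. UMIs were summed per class and library and divided by the class total. Intervals are exact Poisson, binomial (Clopper-Pearson) or conditional ratio intervals at 95%, computed in Python 3.11.15 (numpy 2.4.6, scipy 1.17.1), and were tested on simulated data; figures used matplotlib 3.10.9. A 0 was taken to allow 3 counts, and no ratio is given where both sums have 3 counts or fewer. A gene counted as 2-fold higher or lower by its ratio, without a test. UMIs of the 3′ assay were not scaled by length, so levels are compared between samples and classes, not between genes. Shares of cells were also taken after thinning to 1000 UMIs. The marker cells are cells outside the classes with under 10% hormone UMIs, at least 5 UMIs of at least 3 markers of 1 type, and at least 0.2% of their UMIs from them. The median gene is that of genes with at least 20 UMIs over both sums and 1 in each.

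The members and gene lists were chosen with earlier results of these data known. Genes named are the 9 members, the 2 highest and 2 lowest log2 ratios of each list at 5 weeks in beta cells, and a few fixed relatives; Cat was named after its values were seen, and a few genes that the rule names are not reported here. Promoter windows and gene positions are RefSeq's for GRCm38.p6.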

Additional observations from a re-analysis of the deposited data

Results flagged for a closer look

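Cells in no hormone class, which the comparisons of classes do not use, held members above the interval of the WT cells of that kind. At 1 week these include cells with enough Ins2 but under 5000 UMIs, a minimum that WT did not have. Ldha was at 44.8 CPM there at 1 week (38.2 to 52.1) and 37.5 CPM at 5 weeks (30.7 to 45.3), against 1.71 CPM in WT (0.043 to 9.51). Cxcl12 was at 14.2 CPM at 1 week (10.6 to 18.6), from 53 UMIs in 3 cells, against 0 in WT, which allows up to 5.12 CPM. Hk1 was at 8.48 CPM at 5 weeks (5.43 to 12.6), against the same limit. At 5 weeks 92 of the 135 Ldha UMIs and 18 of the 52 Hk1 UMIs of the library lay in 191 cells with markers of a non-endocrine type, of which WT had 66. What set the number of such cells in each library was not tested.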

How the results depend on the processing

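The 11 alternatives for the divisor, the cells and the classes, and a 1.5-fold limit, were planned; comparing 5 weeks with 1 week in place of WT, and the sum without Oat, were chosen after seeing the data. The count of members 2-fold higher in beta cells at 5 weeks, 0, became 1 (Ldha) with the mean of each cell's CPM, within the study's limits, with cells of several classes kept and at 1.5-fold, and 4 against 1 week (Ldha, Acot7, Oat and Aldh1a3); the lower count became 1 (Oat) with free RNA subtracted or beta cells under 1% Gcg and Sst. At 1 week, within the study's limits, 1 member was higher (Ldha) and 0 lower, and after thinning 0 lower. Members under both alpha and delta cells, 1 at 1 week (Hk1) and 1 at 5 weeks (Oat), became at 1 week 0 with thinning, the study's limits or the class limits of the other libraries and 2 with no UMI minimum, and at 5 weeks 2 with cells of several classes kept or at 1.5-fold. Against 1 week, Oat was higher in 5-week alpha cells, and Oat and Aldh1a3 in delta cells, from 3 and 1 delta-cell UMIs at 1 week. The share of all genes past 2-fold was not taken for these comparisons, so the calls have nothing to stand beside. Against WT, Oat became the 1 member higher in 5-week delta cells with cells of several classes kept or at 1.5-fold. Of 310 recomputed log2 ratios 292 stayed within the interval of the value given, and 11 turned sign, of which 2 had been at least 2-fold, both after thinning: Aldh1a3 at 1 week over WT in beta cells (0.98) and in WT beta over alpha cells (-0.80). Many of these intervals span several-fold, so staying within them is a weak check. A ratio left with too few UMIs was not recomputed. Of the 38 ratios given, thinning left 13 within the interval, moved 4 out of it, reversed 2 and gave none for the others. With genes of 1 UMI or more, the shares of genes past 2-fold in beta cells were 9.61% higher and 8.68% lower at 5 weeks, and 45.8 and 5.56% at 1 week. No paired analysis was possible because each condition has 1 library, and no replicate could be left out. Depth limits what can be said: a beta-cell level under 0.109 to 0.20 CPM gives 3 counts or fewer, so a rise from 1 such level to another could not be detected.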
